A study of Mus musculus with 12 samples.

Results

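Oxidative phosphorylation genes encode the respiratory chain and the ATP synthase of mitochondria. Members were taken by gene symbol alone: the Nduf, Sdha to Sdhd, Uqcr, Cox4 to Cox8 and Atp5 families of the nuclear genome, and the mt-Nd, mt-Co, mt-Cyt and mt-Atp genes of the mitochondrial genome. By this rule 94 of the 11921 genes in the deposited table were members, of which 87 were nuclear-encoded and 7 mitochondria-encoded. No change between groups entered the rule, but it needed a place in the deposited table, and 22 further symbols of these families lay outside it, with 0 to 25 counts in any library. All 94 also passed the filter on low counts.

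The libraries came from naive CD4+ T cells, sorted from the spleens of C57BL/6 mice and expanded in culture with anti-CD3 and anti-CD28 antibodies and then rested. The 4 groups of 3 libraries each were WT T cells with the solvent DMSO, WT T cells with 10-carboxymethyl-9-acridanone (CMA), STINGgt/gt T cells with DMSO and STINGgt/gt T cells with CMA, each after 16 h. CMA is a cell-permeable agonist of mouse STING, the adaptor of cytosolic DNA sensing. STINGgt/gt mice, named STING knockout in the labels, carry a missense mutation of the gene Tmem173 in every cell, so the level of this mRNA does not check the genotype labels. The study calls the libraries of a group biological replicates, but no label states the animal or culture of a library, so p-values measure the spread between these libraries.

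The respiratory chain passes electrons from NADH and succinate to oxygen and pumps protons across the inner mitochondrial membrane, and the ATP synthase uses the returning protons to make ATP. Complex I (NADH dehydrogenase), complex III (cytochrome bc1), complex IV (cytochrome c oxidase) and the ATP synthase are mosaics of subunits from both genomes, whereas complex II (succinate dehydrogenase) is wholly nuclear-encoded. Mitochondrial DNA is transcribed by its own polymerase into long precursors that are cut into single mRNAs, and activated T cells are known to enlarge their mitochondrial content as they start to divide.

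Each library had between 27414450 and 43784910 reads on genes. T-cell markers were present, with Cd4 at a mean of 435 CPM (reads scaled to a common, TMM-adjusted library size, the scale of all levels given here) in WT T cells with DMSO. Markers of other cell types were not absent. B-cell, myeloid, CD8 and natural killer, and red-cell markers were at 0 throughout for none of the genes listed, and 6 of 6 tested B-cell and 6 of 6 tested myeloid markers were higher in WT than in STINGgt/gt T cells with DMSO. The library that stood apart was WT DMSO replicate 2, in which the mitochondria-encoded members took 1.11% of all reads on genes, compared with 0.696% and 0.664% in the other WT DMSO libraries. Its share of mitochondrial ribosomal RNA was also the highest of the 12 libraries, at 0.0655%. Results that rest on it are given with and without it. Because it was set apart by the values of these same members, p-values without it are a description and not an independent test. In bulk RNA, fewer cells of a type and less RNA per cell cannot be told apart.

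Several mitochondria-encoded genes had almost no counts. Reads that aligned to more than 1 place were not counted, and 6 mitochondrial protein-coding genes outside the table (mt-Atp6, mt-Atp8, mt-Co2, mt-Co3, mt-Nd3 and mt-Nd4l) had between 0 and 2 counts in every library. In windows of 50 bases, 100% of mt-Co2, 99.9% of mt-Co3, 99.5% of mt-Atp6, 98.8% of mt-Nd4l and 98.0% of mt-Nd3 was present in another annotated transcript. None of mt-Atp8 was, and it had 0 counts too. The part of shared sequence in these low counts was not tested. Among the 7 members the shared part was 62.2% for mt-Nd4, 51.1% for mt-Co1, 8.19% for mt-Nd2, 7.61% for mt-Nd5 and 0% for mt-Nd1, mt-Nd6 and mt-Cytb. As examples of a shared and of an unshared stretch, the first 60 bases of mt-Co2, outside the table, and of mt-Nd1 and mt-Cytb, both members, are printed 5′ to 3′ from GENCODE M21 transcripts. The stretch of mt-Co2 is also present in Gm28661, and those of mt-Nd1 and mt-Cytb are in no other annotated gene.
mt-Co2: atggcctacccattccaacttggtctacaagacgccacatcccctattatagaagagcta
mt-Nd1: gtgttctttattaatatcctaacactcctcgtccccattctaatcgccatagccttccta
mt-Cytb: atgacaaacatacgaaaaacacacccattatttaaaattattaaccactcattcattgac

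By counted reads per kilobase of transcript, 3 mitochondria-encoded mRNAs were the most abundant members. In WT T cells with DMSO the mean level was 2551 CPM per kilobase for mt-Nd1, 1849 for mt-Co1 and 1267 for mt-Nd2. The others were lower, at 678 for mt-Cytb, 299 for mt-Nd5, 212 for mt-Nd4 and 33.6 for mt-Nd6. These levels divide counted reads by the full length, though 62.2% of mt-Nd4 and 51.1% of mt-Co1 is shared sequence, against 0% of mt-Nd1. The order is therefore one of counted reads and need not be that of the mRNAs. Among nuclear-encoded members the leading gene of each complex on the same scale was Atp5b, the catalytic beta subunit of the ATP synthase, at 760, Uqcrh of complex III at 339, Cox4i1 of complex IV at 303, Ndufv3 of complex I at 252 and Sdha of complex II at 171.

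With CMA, most nuclear-encoded members fell in WT T cells. Of 87, 72 were lower (82.8%) and 2 were higher, Cox6b2 and Ndufaf3, by edgeR's quasi-likelihood test at an adjusted p of 0.05. Over all 13811 genes tested, 37.4% were lower and 33% were higher. The median log2 fold change of the nuclear-encoded members was -0.35, so the median gene fell by 21.8%, beside -0.04 for all genes tested. For 73 members every CMA library lay below every DMSO library, and for 2 every CMA library lay above (37.6% and 33.5% of all genes). The changes were small. With a 1.5-fold minimum 11 of the 87 members were lower and 1 higher, beside 16.2% and 16.5% of all genes, so that the lower share of the members was then below that of all genes.

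Cell type markers moved in the same comparison. Summed T-cell markers were 3438 to 3550.0 CPM with DMSO and 3192 to 3206 with CMA in WT T cells, with 5 of 9 lower and 1 higher. Summed B-cell markers went from 632 to 696 CPM to 716 to 799 (4 of 6 higher), and CD8 and natural killer markers, mostly Gzmb, from 1950.3 to 2402 to 1456 to 1553 (5 of 6 lower). Summed myeloid markers were 57.4 to 64.5 and 70.7 to 74.8 CPM, though 3 of 6 tested were lower and 1 higher, and red-cell markers 1.37 to 1.84 and 2.65 to 3.12 CPM (2 of 3 tested higher). The CD8 and natural killer sum of STINGgt/gt T cells went from 862 to 905 CPM to 657 to 701, with Gzmb lower (log2 fold change -0.40, adjusted p = 0.0032, edgeR) and the other 5 genes not past the test, and 0 genes of the other 4 lists passed. The WT ranges did not overlap for any of the 5 lists, and the part of these markers' cells in the results was not tested. The sort of naive CD4+ T cells came before the culture.

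**Figure D1:**
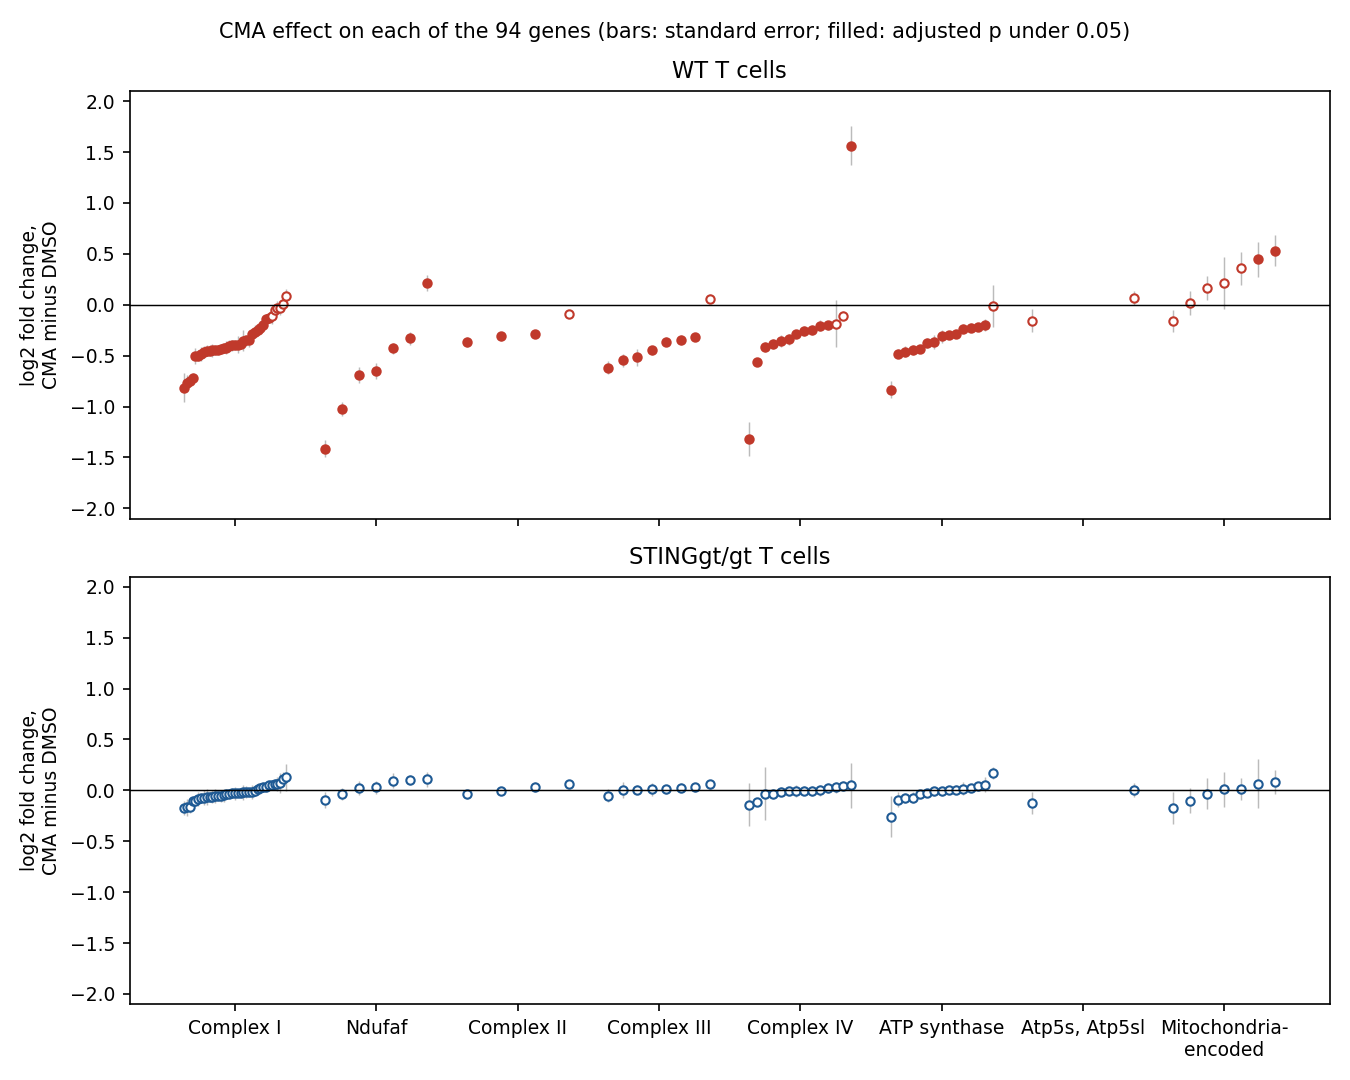
Log2 fold change of CMA against DMSO for each of the 94 members (points with their standard error, filled where the adjusted p was under 0.05), in WT and in STINGgt/gt T cells, grouped by complex. The WT points of each nuclear-encoded complex lie mostly below 0, with medians from -0.27 for complex IV to -0.41 for complex III, and -0.65 for the complex I assembly factors, and the STINGgt/gt points lie close to 0.

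Complex I takes electrons from NADH and is the largest of the complexes. Of the 37 nuclear-encoded members with a subunit symbol of complex I (Ndufa, Ndufb, Ndufc, Ndufs and Ndufv), 31 were lower with CMA in WT T cells and none was higher, with a median of -0.40. These include Ndufa4, now counted as a subunit of complex IV, without which 30 of 36 were lower, with a median of -0.39. Ndufb11, an accessory subunit of the membrane arm on the X chromosome (20615326 to 20617619, GRCm38), had 95.6, 99.4 and 99.0 CPM with DMSO and 58.0, 59.3 and 57.5 with CMA. The groups did not overlap, and the log2 fold change was -0.75 (SE 0.040, adjusted p = 5.27e-11, edgeR). On the opposite strand, Rbm10 covers 12.9% of its exon bases, and the strand setting of the counting was not given in the sources used here. Ndufa12, an accessory subunit of the peripheral arm, had 36.1, 38.7 and 32.7 CPM with DMSO and 20.8, 21.2 and 21.1 with CMA. All CMA libraries were lower, by a log2 value of 0.76 in size (log2 fold change -0.76, SE 0.074, adjusted p = 9.97e-08, edgeR). Ndufb4, another accessory subunit, had 3.97, 5.10 and 3.88 CPM with DMSO and 2.32, 2.56 and 2.46 with CMA. These groups did not overlap either (log2 fold change -0.81, SE 0.142, adjusted p = 8.13e-05, edgeR), but 37.0% of its 50-base windows are shared with other transcripts.

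Among the core subunits of complex I, Ndufs1, which carries iron-sulphur clusters, and Ndufv1, which carries the flavin, both fell. The log2 fold change was -0.50 for Ndufs1 (adjusted p = 1.8e-07) and -0.38 for Ndufv1 (adjusted p = 1.9e-06), both by edgeR. Ndufs3, another core subunit, gave -0.05 (adjusted p = 0.38, edgeR) and did not pass the test. Of its 50-base windows, 39.7% are shared with other transcripts. At the other end of complex I, Ndufa11 had 25.02, 27.7 and 23.9 CPM with DMSO and 26.03, 28.3 and 27.0 with CMA. Ndufa6 had 72.2, 77.4 and 70.3 CPM with DMSO and 68.3, 79.3 and 72.8 with CMA. The groups of both genes overlapped, and the log2 fold changes were 0.09 (adjusted p = 0.224) and 0.00 (adjusted p = 0.964) by edgeR. Ndufa11 passed the test without WT DMSO replicate 2 (0.14, adjusted p = 0.045, edgeR) and with a length trend removed (0.20, adjusted p = 0.0034).

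The Ndufaf genes encode factors that help to build complex I and do not stay in it. Of 7, 6 were lower and 1 was higher, and their median of -0.65 was the lowest of the groups described here. Ndufaf4 (chromosome 4, 24898083 to 24905001, GRCm38) had 20.4, 21.2 and 23.5 CPM with DMSO and 8.82, 8.48 and 7.15 with CMA. Every CMA library lay below every DMSO library, and the log2 fold change was -1.41 (SE 0.084, adjusted p = 2.16e-10, edgeR). Ndufaf6 had 13.7, 14.5 and 13.3 CPM with DMSO and 6.53, 7.19 and 6.71 with CMA, with no overlap (log2 fold change -1.02, SE 0.070, adjusted p = 1.46e-09, edgeR). Ndufaf1 fell less, from 22.4, 25.1 and 25.2 CPM to 18.4, 19.4 and 20.2 (log2 fold change -0.33, SE 0.062, adjusted p = 0.00015, edgeR). Ndufaf3 was the exception, with 8.63, 9.46 and 7.75 CPM with DMSO and 9.93, 10.1 and 9.77 with CMA. Its CMA libraries were all above its DMSO libraries, by a log2 value of 0.21 (SE 0.078, adjusted p = 0.0215, edgeR). This call was lost without WT DMSO replicate 3 (adjusted p = 0.11), WT CMA replicate 1 (0.0505) or WT CMA replicate 2 (0.065).

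Complex II feeds electrons from succinate and is also an enzyme of the citric acid cycle. Sdha, its flavoprotein, had 314, 299 and 317 CPM with DMSO and 256, 250 and 255 with CMA (log2 fold change -0.29, SE 0.039, adjusted p = 6.16e-06, edgeR). Sdhc, a membrane anchor, had 87.8, 85.4 and 83.6 CPM with DMSO and 67.1, 65.1 and 66.8 with CMA (log2 fold change -0.37, SE 0.051, adjusted p = 6.52e-06, edgeR). The iron-sulphur subunit Sdhb fell too (log2 fold change -0.31, SE 0.045, adjusted p = 1.28e-05, edgeR). The groups of these 3 genes did not overlap. Sdhd, the other anchor, had 116, 115 and 114 CPM with DMSO and 108, 107 and 110 with CMA. Its groups did not overlap, yet its log2 fold change of -0.09 missed the threshold (adjusted p = 0.0509, edgeR), which it passed with library-size scaling (adjusted p = 0.0148), with scaling over nuclear genes (0.0478) and by limma-voom (0.046).

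Complex III passes electrons to cytochrome c. Of its 8 nuclear-encoded members, 7 were lower, with a median of -0.41. Uqcrq had 85.6, 89.3 and 77.6 CPM with DMSO and 53.8, 59.0 and 51.7 with CMA (log2 fold change -0.62, SE 0.065, adjusted p = 2.94e-07, edgeR). Uqcrb had 62.3, 61.9 and 68.3 CPM with DMSO and 42.0, 42.7 and 47.7 with CMA (log2 fold change -0.54, SE 0.064, adjusted p = 1.03e-06, edgeR). Of its 50-base windows, 43.4% are shared with other transcripts. The core protein gene Uqcrc2 fell by less, with a log2 fold change of -0.32 (SE 0.042, adjusted p = 3.71e-06, edgeR), and the Rieske protein gene Uqcrfs1 gave -0.45 (adjusted p = 1.0e-07, edgeR). An exon of Pdzd9 lies opposite to 19.7% of the exon bases of Uqcrc2. Uqcrh, the hinge protein, had 162, 168 and 153 CPM with DMSO and 167, 167 and 169 with CMA. Its groups overlapped, with a log2 fold change of 0.06 (SE 0.044, adjusted p = 0.246, edgeR). It passed as higher when each library had to hold 10 counts (0.10, adjusted p = 0.049), by limma on the log2 table (0.10, 0.038) and with a length trend removed (0.17, 0.00044).

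Complex IV reduces oxygen, and several of its nuclear-encoded subunits exist as isoforms from separate genes. Of 14 members, 11 were lower and 1 was higher, with a median of -0.27. The sharpest contrast was between the isoforms of subunit 6b. Cox6b2, known for its expression in testis, had 1.31, 1.07 and 0.707 CPM with DMSO and 2.85, 3.12 and 2.90 with CMA in WT T cells, and its position is chromosome 7, 4751792 to 4753094 (GRCm38). The CMA libraries were all above the DMSO libraries (log2 fold change 1.56, SE 0.196, adjusted p = 2.21e-06, edgeR). The common isoform Cox6b1 went from 110, 114 and 107 CPM to 88.9, 95.8 and 92.3 (log2 fold change -0.26, SE 0.052, adjusted p = 0.000312, edgeR).

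Subunit 6a also has a common and a muscle isoform, and here both fell. Cox6a2, the muscle isoform, had 1.93, 2.38 and 1.80 CPM with DMSO and 0.865, 0.710 and 0.851 with CMA (log2 fold change -1.32, SE 0.167, adjusted p = 2.48e-06, edgeR). Cox6a1 had 147, 154 and 134 CPM with DMSO and 114, 118 and 107 with CMA (log2 fold change -0.35, SE 0.059, adjusted p = 4.73e-05, edgeR). The groups did not overlap for either. Of subunit 5, Cox5a had 149, 153 and 157 CPM with DMSO and 102, 104 and 105 with CMA (log2 fold change -0.56, SE 0.039, adjusted p = 1.84e-09, edgeR), though 12.8% of its exon bases lie opposite to Gm26631. Cox5b gave a log2 fold change of -0.20 (SE 0.050, adjusted p = 0.00161, edgeR). Of the genes with a Cox7a symbol, Cox7a2 and Cox7a2l fell, with log2 fold changes of -0.34 (adjusted p = 3.05e-05) and -0.20 (adjusted p = 0.000718) by edgeR. The muscle isoform Cox7a1, at 1.68, 1.74 and 1.41 CPM with DMSO and 1.34, 1.91 and 0.945 with CMA, overlapped between the groups (adjusted p = 0.484, edgeR).

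Cox4i1, the most abundant nuclear-encoded complex IV mRNA per kilobase, had 223, 237 and 216 CPM with DMSO and 209, 211 and 209 with CMA. The groups did not overlap, and the log2 fold change of -0.11 (SE 0.048, adjusted p = 0.0571, edgeR) missed the threshold, which it passed without WT DMSO replicate 3 (-0.13, adjusted p = 0.026) and with library-size scaling (-0.13, 0.023). Cox7b and Cox8a, of which the table held 1 isoform each, gave log2 fold changes of -0.41 (adjusted p = 8.17e-07) and -0.25 (adjusted p = 0.000473) by edgeR. Ndufa4, named for complex I, fell from 90.0, 95.2 and 90.9 CPM to 64.9, 69.1 and 68.8 (log2 fold change -0.45, SE 0.047, adjusted p = 3.23e-07, edgeR). With it, 12 of 15 complex IV members were lower and 1 was higher, with a median of -0.29.

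The ATP synthase turns the proton gradient into ATP. Of its 15 members, 14 were lower, with a median of -0.31. Atp5b had 1416, 1481 and 1472 CPM with DMSO and 1191, 1200 and 1186 with CMA (log2 fold change -0.29, SE 0.038, adjusted p = 4.19e-06, edgeR). Atp5a1, the alpha subunit, had 960, 991 and 1006 CPM with DMSO and 864, 848 and 837 with CMA (log2 fold change -0.21, SE 0.039, adjusted p = 0.00013, edgeR). The groups did not overlap for either gene. The remaining member was Atp5l, at a mean of 1.11 CPM, of which 84.8% is shared with other transcripts. Of the 87 nuclear-encoded members, 40 had no shared window and 2 had over 50% of theirs shared.

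The proton-carrying c ring is made of 1 protein encoded by a set of 3 genes, and the 3 differed in size of change. Atp5g1 had 48.6, 55.3 and 45.5 CPM with DMSO and 28.1, 30.0 and 25.6 with CMA (log2 fold change -0.83, SE 0.081, adjusted p = 1.12e-07, edgeR). Atp5g2 had 51.9, 50.9 and 50.5 CPM with DMSO and 42.1, 41.2 and 41.5 with CMA (log2 fold change -0.30, SE 0.042, adjusted p = 8.2e-06, edgeR). Atp5g3 had 185, 192 and 187 CPM with DMSO and 142, 140 and 138 with CMA (log2 fold change -0.43, SE 0.042, adjusted p = 1.09e-07, edgeR). For each of them the groups were separate. Atp5f1, a stator subunit, gave a log2 fold change of -0.48 (SE 0.045, adjusted p = 7.19e-08, edgeR) and Atp5k, a small membrane subunit, -0.20 (SE 0.059, adjusted p = 0.00607, edgeR), the last of which was lost with a length trend removed (-0.13, adjusted p = 0.073). Of the 50-base windows of Atp5f1, 38.7% are shared with other transcripts. The 2 genes with an Atp5 symbol that encode no subunit, Atp5s and Atp5sl, gave -0.16 (adjusted p = 0.23) and 0.06 (adjusted p = 0.42) by edgeR.

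**Figure D2:**
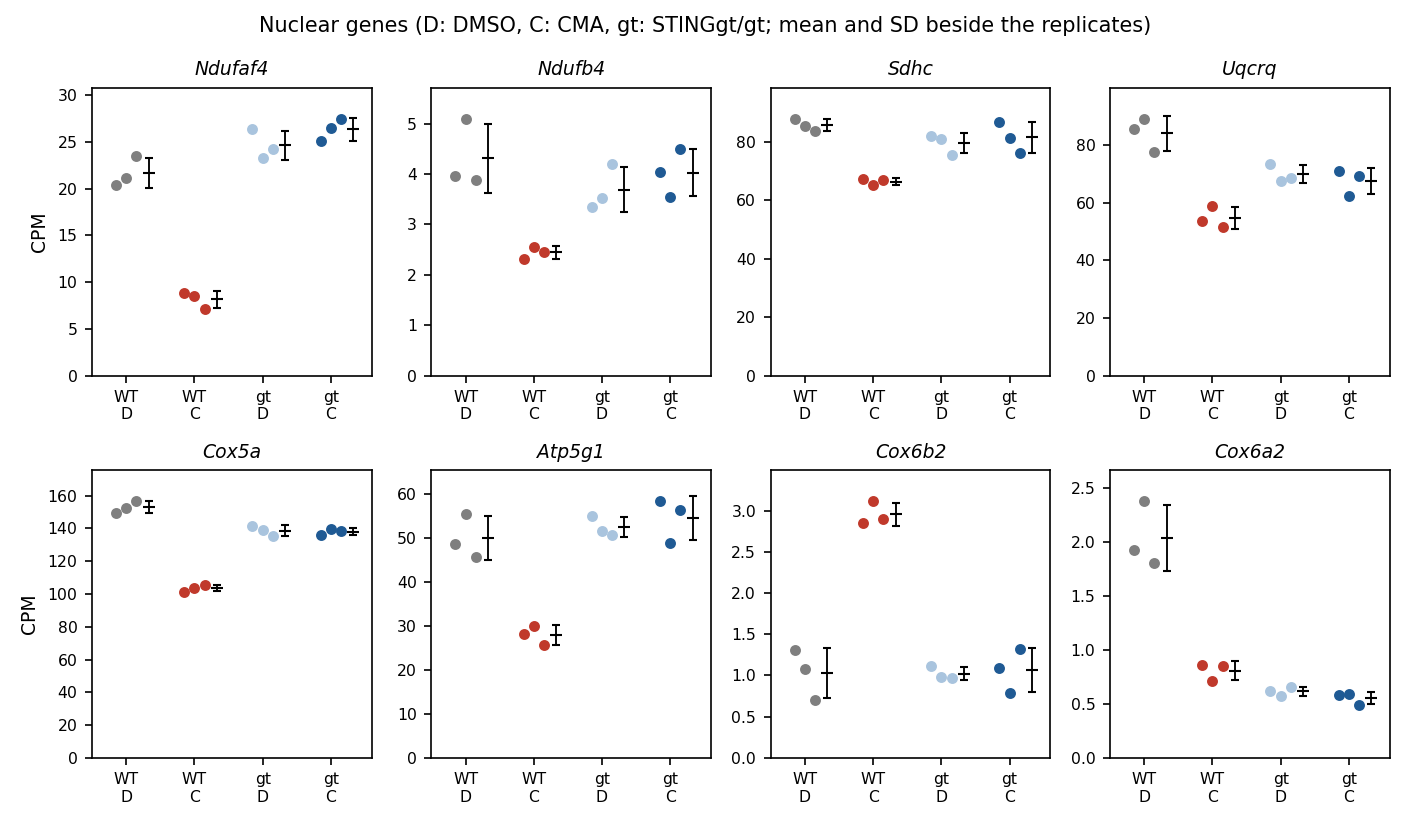
CPM of selected nuclear-encoded members in each of the 12 libraries, by group (points, with the mean and SD of the group beside them). The WT CMA libraries of Ndufaf4 lie between 7.15 and 8.82 CPM, below all others of that gene, and those of Cox6b2 lie between 2.85 and 3.12 CPM, above all others.

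In STINGgt/gt T cells no member passed the test with CMA. By edgeR 0 of the 87 nuclear-encoded and 0 of the 7 mitochondria-encoded members passed the test, beside 0.398% of all genes higher and 0.92% lower. At an unadjusted p of 0.05, 4 and 0 passed, beside 1790 of all 13811 genes tested. DESeq2 called 0 members as well, beside 0.883% of all genes higher and 1.48% lower. So did limma-voom (0.449% and 0.905%) and limma on the log2 table (0.445% and 1.35%). The medians were -0.01 and 0.01. Ndufaf4 had 26.4, 23.3 and 24.3 CPM with DMSO and 25.1, 26.5 and 27.5 with CMA. Ndufb11 had 72.1, 68.6 and 70.4 CPM with DMSO and 69.6, 69.7 and 67.7 with CMA. Cox6b2 had 1.11, 0.985 and 0.965 CPM with DMSO and 1.09, 0.792 and 1.33 with CMA. The groups overlapped for these 3 genes. Of the 87 nuclear-encoded members, 3 had every CMA library above every DMSO library and 6 had every one below, beside 11.8% and 11.3% of all genes tested, and the other 78 overlapped. Ndufv3 gave -0.17 (adjusted p = 0.268, edgeR), which passed without WT DMSO replicate 3 (-0.17, adjusted p = 0.041) and with only the 2 groups compared (-0.17, 0.019).

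The difference between the CMA effects of the 2 genotypes was tested directly. Of the 87 nuclear-encoded members, 69 had a lower effect in WT than in STINGgt/gt T cells and 2 a higher one, beside 31.6% and 27.2% of all genes tested, with a median difference of -0.32. The log2 difference was -1.51 for Ndufaf4 (SE 0.111, adjusted p = 7.32e-09, edgeR), -1.05 for Ndufaf6 (SE 0.094, adjusted p = 7.95e-08), -0.89 for Atp5g1 (SE 0.111, adjusted p = 4.02e-06) and -0.72 for Ndufb11 (SE 0.056, adjusted p = 1.41e-08). It was 1.51 for Cox6b2 (SE 0.299, adjusted p = 0.000387, edgeR) and 0.31 for Ndufaf3 (SE 0.111, adjusted p = 0.0262), which was lost without WT DMSO replicate 3 (adjusted p = 0.061) or WT CMA replicate 2 (0.055). By complex, 27 of 37 members of complex I (26 of 36 without Ndufa4), all 4 of complex II, 7 of 8 of complex III, 11 of 14 of complex IV (12 of 15 with Ndufa4) and 14 of 15 of the ATP synthase had a lower effect in WT.

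The mitochondria-encoded members were few, and the shares of them called in WT T cells were below those of all genes. Of 7, 2 were higher with CMA (28.6%) and none was lower, beside 33% and 37.4% of all genes tested. The median was 0.22, but the groups overlapped for all 7, through WT DMSO replicate 2 alone for all but mt-Nd1 and mt-Nd6. mt-Cytb, the cytochrome b of complex III, had 624, 1081 and 621 CPM with DMSO and 1144, 1019 and 1191 with CMA (log2 fold change 0.53, SE 0.153, adjusted p = 0.00556, edgeR). mt-Nd4 of complex I had 229, 427 and 218 CPM with DMSO and 406, 381 and 403 with CMA (log2 fold change 0.45, SE 0.173, adjusted p = 0.0308, edgeR). In both, DMSO replicates 1 and 3 were below every CMA library. The call on mt-Nd4 was lost without WT DMSO replicate 1 (0.31, adjusted p = 0.14), WT DMSO replicate 3 (0.28, 0.094), WT CMA replicate 1 (0.43, 0.071) or WT CMA replicate 3 (0.43, 0.067), and also by DESeq2 (0.48, 0.062) and with only the 2 groups compared (0.48, 0.069).

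mt-Co1, the catalytic subunit of complex IV, had 2400, 4028 and 2142 CPM with DMSO and 3788, 3523 and 3667 with CMA. DMSO replicate 2 was the highest of the 6 libraries, and the log2 fold change of 0.36 missed the threshold (SE 0.158, adjusted p = 0.0542, edgeR). It passed by limma-voom (0.42, adjusted p = 0.026), by limma on the log2 table (0.46, 0.018), when 10 counts were required throughout (0.40, 0.037), with no filter (0.38, 9.494e-11) and with a length trend removed (0.47, 0.0046). mt-Nd1 had 2129, 3069 and 2126 CPM with DMSO and 2249, 2100 and 2216 with CMA (log2 fold change -0.16, SE 0.111, adjusted p = 0.216, edgeR), and passed as lower without WT DMSO replicate 3 (-0.24, 0.045) and with no filter (-0.14, 0.016). mt-Nd2 had 1103, 1688 and 1156 CPM with DMSO and 1368, 1221 and 1401 with CMA (log2 fold change 0.02, adjusted p = 0.91, edgeR). mt-Nd5 gave 0.16 (adjusted p = 0.237; 0.18 and 0.0028 with no filter, 0.26 and 0.029 with a length trend removed) and mt-Nd6, which is transcribed from the other strand and had 9.21 to 24.7 CPM in WT T cells with DMSO, gave 0.22 (adjusted p = 0.468; 0.23 and 0.019 with no filter), both by edgeR.

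Without WT DMSO replicate 2, 6 of the 7 were higher with CMA in WT T cells, and the median was 0.51, beside 32.9% of all genes higher and 37.4% lower with the same libraries. That library was picked by its values of these same genes, so the adjusted p-values without it are descriptive only. The log2 fold changes became 0.84 for mt-Cytb (adjusted p = 1.362e-09, edgeR), 0.82 for mt-Nd4 (adjusted p = 1.182e-09), 0.68 for mt-Co1 (adjusted p = 4.856e-08) and 0.51 for mt-Nd6 (adjusted p = 0.0487). They were 0.38 for mt-Nd5 (adjusted p = 4.519e-05), 0.23 for mt-Nd2 (adjusted p = 0.004125) and 0.03 for mt-Nd1 (adjusted p = 0.6679). Thus mt-Nd1 turned from below to above 0 and stayed uncalled. For the nuclear-encoded members, leaving out any 1 library gave 70 to 73 lower members in the same comparison.

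**Figure D3:**
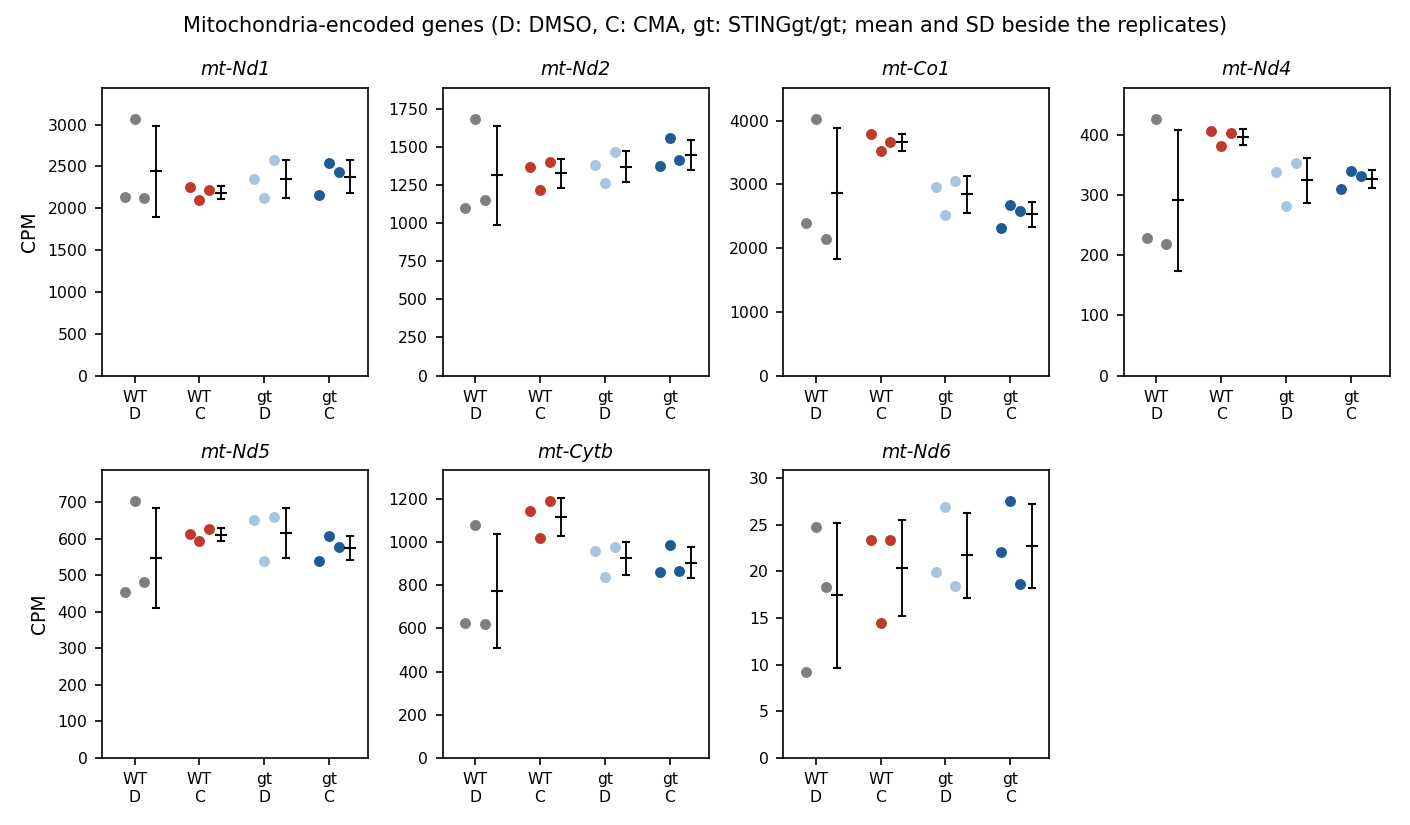
CPM of the 7 mitochondria-encoded members in each of the 12 libraries, by group (points, with the mean and SD of the group beside them). WT DMSO replicate 2 is the highest of the WT DMSO libraries for 7 of 7 genes, for example 4028 CPM for mt-Co1 beside 2400 and 2142.

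In STINGgt/gt T cells the mitochondria-encoded members had log2 fold changes between -0.17 (mt-Co1) and 0.08 (mt-Nd2) with CMA. mt-Co1 had 2957, 2516 and 3059 CPM with DMSO and 2313, 2681 and 2587 with CMA, and the groups overlapped (adjusted p = 0.708, edgeR). The difference between the CMA effects of the genotypes passed the test for mt-Cytb alone (27.2% of all genes were higher), at 0.56 (SE 0.216, adjusted p = 0.0346, edgeR), and gave 0.53 for mt-Co1 (adjusted p = 0.0531), which passed by limma-voom (0.58, 0.032) and by limma on the log2 table (0.63, 0.025). With libraries blocked by the first digit of their names, and those without a partner left out, mt-Co1 (0.71, adjusted p = 0.0075), mt-Nd4 (0.62, 0.026) and mt-Nd5 (0.42, 0.027) passed as well. For mt-Cytb the call was lost by DESeq2 (0.59, adjusted p = 0.085) and without any 1 of 7 libraries: WT DMSO replicate 1 (0.44, adjusted p = 0.088), WT CMA replicates 1 (0.54, 0.064) and 3 (0.51, 0.076), STINGgt/gt DMSO replicates 1 (0.55, 0.064) and 3 (0.53, 0.069) and STINGgt/gt CMA replicates 1 (0.54, 0.067) and 3 (0.54, 0.064). Without WT DMSO replicate 2, 4 members passed as higher, beside 28.1% of all genes, with mt-Cytb at 0.87, mt-Co1 at 0.85, mt-Nd4 at 0.81 and mt-Nd5 at 0.48.

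The share of all reads on genes puts the 2 genomes side by side. The nuclear-encoded members took 0.941%, 0.983% and 0.918% of reads in WT T cells with DMSO and 0.747%, 0.760% and 0.743% with CMA, with no overlap. In STINGgt/gt T cells they took 0.910%, 0.887% and 0.871% with DMSO and 0.903%, 0.866% and 0.881% with CMA, and these overlapped. The mitochondria-encoded members took 0.696%, 1.11% and 0.664% in WT T cells with DMSO and 0.937%, 0.869% and 0.930% with CMA. The log2 ratio of mitochondria-encoded to nuclear-encoded reads was -0.44, 0.17 and -0.47 in the WT DMSO libraries and 0.33, 0.19 and 0.32 in the WT CMA libraries. All 3 CMA libraries had the higher ratio, though WT DMSO replicate 2 lay only just below CMA replicate 2. In STINGgt/gt T cells the ratio was -0.06, -0.21 and 0.09 in the DMSO libraries and -0.23, 0.03 and -0.07 in the CMA libraries. With 3 libraries against 3 an exact two-sided permutation test cannot go below 0.1, so no p is given for these shares.

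**Figure D4:**
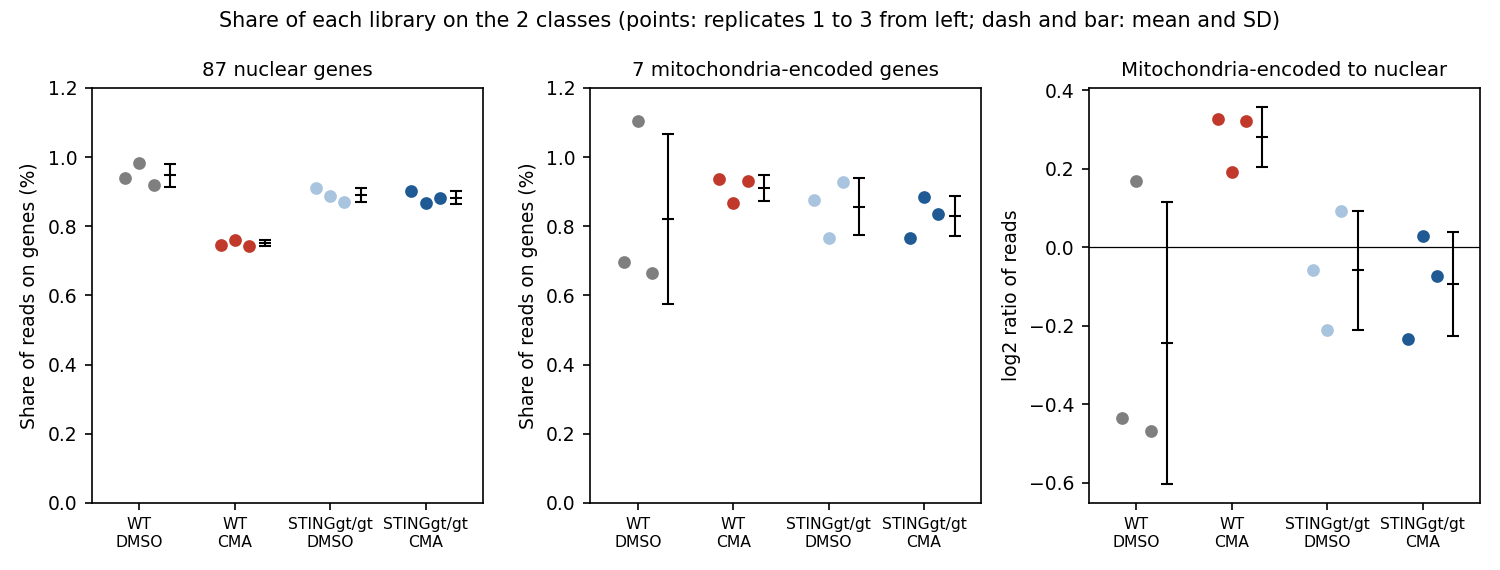
Percent of reads on genes that fell on nuclear-encoded and on mitochondria-encoded members, and the log2 ratio of the latter to the former, in each library by group (points, with the mean and SD beside them). The WT CMA libraries sit lowest for the nuclear-encoded share, at 0.743% to 0.760%.

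Other genes that serve the same machinery were read from lists that do not overlap the members, and their counts in WT T cells with CMA stand beside 37.4% lower and 33% higher of all genes tested. Of 5 electron carrier genes, 3 were lower and 1 higher with CMA in WT T cells. Cycs, cytochrome c, went from a mean of 61.4 to 34.3 CPM (log2 fold change -0.84, adjusted p = 2.79e-09, edgeR), and Etfb, a subunit of the flavoprotein that carries electrons from fatty acid oxidation, from 51.0 to 26.5 (log2 fold change -0.94, adjusted p = 3.58e-10). Etfdh, which passes those electrons on to ubiquinone, rose from 61.4 to 90.2 CPM (log2 fold change 0.55, adjusted p = 5.89e-08). Of 37 tested assembly factors outside the rule, 19 were lower and 6 higher. Ecsit, a factor of complex I assembly, gave a log2 fold change of -1.20 (adjusted p = 2.23e-11), whereas the copper chaperones Cox17 and Sco1 of complex IV gave 1.40 (adjusted p = 1.09e-10) and 0.79 (adjusted p = 1.35e-10), all by edgeR.

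Of 16 genes for transcription and copying of mitochondrial DNA, 10 were lower and 2 higher in WT T cells with CMA. Top1mt, the mitochondrial topoisomerase, went from a mean of 15.7 to 5.0 CPM (log2 fold change -1.66, adjusted p = 2.38e-12, edgeR), the helicase gene Twnk gave -0.72 (adjusted p = 3.25e-09) and Tfb1m, a ribosomal RNA methyltransferase, -0.52 (adjusted p = 2.65e-06). Tfam, which packages the genome, gave -0.07 (adjusted p = 0.249, edgeR). Of 16 genes for processing and decay of mitochondrial RNA, 14 were lower and none higher, with a median of -0.54. Lrpprc, which stabilizes mitochondrial mRNAs, went from a mean of 134 to 63.2 CPM (log2 fold change -1.08, adjusted p = 4.45e-11, edgeR), the exonuclease gene Rexo2 gave -0.91 (adjusted p = 5.35e-11) and Hsd17b10, a part of mitochondrial RNase P, -1.0 (adjusted p = 8.59e-11). Of 9 tested nuclear regulators of respiratory genes, 5 were lower and 2 higher. Pprc1 gave -0.84 (adjusted p = 5.35e-11), Nrf1 -0.35 (adjusted p = 9.01e-07) and Myc 0.65 (adjusted p = 2.17e-08), by edgeR. In STINGgt/gt T cells 0 genes of these 5 lists passed the test with CMA.

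WT and STINGgt/gt T cells were also compared with DMSO, where the same WT DMSO libraries serve as in the CMA comparison. Of the 87 nuclear-encoded members, 26 were higher in WT (29.9%) and 0 lower, beside 22.9% and 19.8% of all genes, and the median log2 difference was 0.11. Ndufaf4 passed as lower by DESeq2 (-0.20, adjusted p = 0.046), with library-size scaling (-0.21, 0.032), when 10 counts were required throughout (-0.20, 0.038) and with no filter (-0.19, 0.025). Every WT library lay above every STINGgt/gt library for 35 nuclear-encoded members and below for 0, beside 25.3% and 22.6% of all genes. Cox6a2, at 1.93, 2.38 and 1.80 CPM in WT, had 0.618, 0.575 and 0.654 in STINGgt/gt T cells (log2 difference 1.71, SE 0.173, adjusted p = 7.31e-07, edgeR). Every WT library was above every STINGgt/gt library, and 10.3% of the exon bases of Cox6a2 lie opposite to an exon of Itgad. Ndufb11 was higher in WT by 0.48 (SE 0.039, adjusted p = 6.22e-08, edgeR), and Cox7a1 by 0.69 (SE 0.243, adjusted p = 0.031), the last of which was lost without WT DMSO replicate 1 (0.65, adjusted p = 0.08), WT DMSO replicate 2 (0.62, 0.063) or STINGgt/gt DMSO replicate 2 (0.51, 0.14). Without WT DMSO replicate 2 or without STINGgt/gt DMSO replicate 3, the number of higher members was 17 of 87, beside 22.2% and 19.6% of all genes with the same libraries.

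Markers listed for other cell types also differed in this comparison. Summed B-cell markers were 632 to 696 CPM in WT and 289 to 298 in STINGgt/gt T cells with DMSO. Myeloid markers summed to 57.4 to 64.5 and 41.2 to 44.2. The CD8 and natural killer list, mostly Gzmb in WT T cells, summed to 1950.3 to 2402 and 862 to 905. Red-cell markers were at 1.37 to 1.84 and 0.0274 to 0.0773 CPM. The part of these cells in the differences between genotypes was not tested.

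None of the 7 mitochondria-encoded members passed the test between genotypes with DMSO, beside 22.9% of all genes higher and 19.8% lower. The log2 differences ran from -0.31 for mt-Nd6 to 0.05 for mt-Nd1 by edgeR. At an unadjusted p of 0.05, 0 passed, beside 6893 of all 13811 genes tested. Without WT DMSO replicate 2, 6 were lower in WT, beside 21% of all genes, with mt-Nd6 at -0.61, mt-Cytb at -0.58 (adjusted p = 1.172e-06), mt-Nd4 at -0.54, mt-Nd5 at -0.40, mt-Co1 at -0.33 and mt-Nd2 at -0.29. With all libraries mt-Co1 gave 0.01 (adjusted p = 0.98).

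With CMA, 8 nuclear-encoded members were higher and 56 lower in WT than in STINGgt/gt T cells, beside 37% and 36.5% of all genes, with a median of -0.22. Every WT library lay above every STINGgt/gt library for 8 and below for 57, beside 39.7% and 39.2% of all genes. The WT CMA libraries are the same as above. Summed B-cell markers were 716 to 799 CPM in WT and 307 to 318 in STINGgt/gt T cells (6 of 6 higher). Myeloid markers summed to 70.7 to 74.8 and 38.9 to 44.1 (5 of 6 tested higher). The CD8 and natural killer list, mostly Gzmb in WT T cells, summed to 1456 to 1553 and 657 to 701 (4 of 6 higher, 2 lower). Red-cell markers were at 2.65 to 3.12 and 0.026 to 0.11 (3 of 3 tested higher). The part of these markers' cells in the differences was not tested. Ndufaf4 gave a log2 difference of -1.69 (SE 0.082, adjusted p = 1.1e-11, edgeR), Cox6b2 1.48 (SE 0.185, adjusted p = 1.89e-06) and Ndufb11, which was higher in WT with DMSO, -0.24 (SE 0.040, adjusted p = 3.6e-05). Of the 7 mitochondria-encoded members, mt-Co1 alone passed and was higher in WT, by 0.53 (SE 0.159, adjusted p = 0.00627, edgeR). Its 3 WT CMA libraries were all above its 3 STINGgt/gt CMA libraries. Without WT DMSO replicate 2, mt-Cytb (0.29, adjusted p = 0.0002591) and mt-Nd4 (0.27, adjusted p = 0.0004481) passed as well, and mt-Nd2 was lower (-0.14, adjusted p = 0.03886). With the same libraries, 37.6% of all genes were higher and 37.8% lower.

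**Figure D5:**
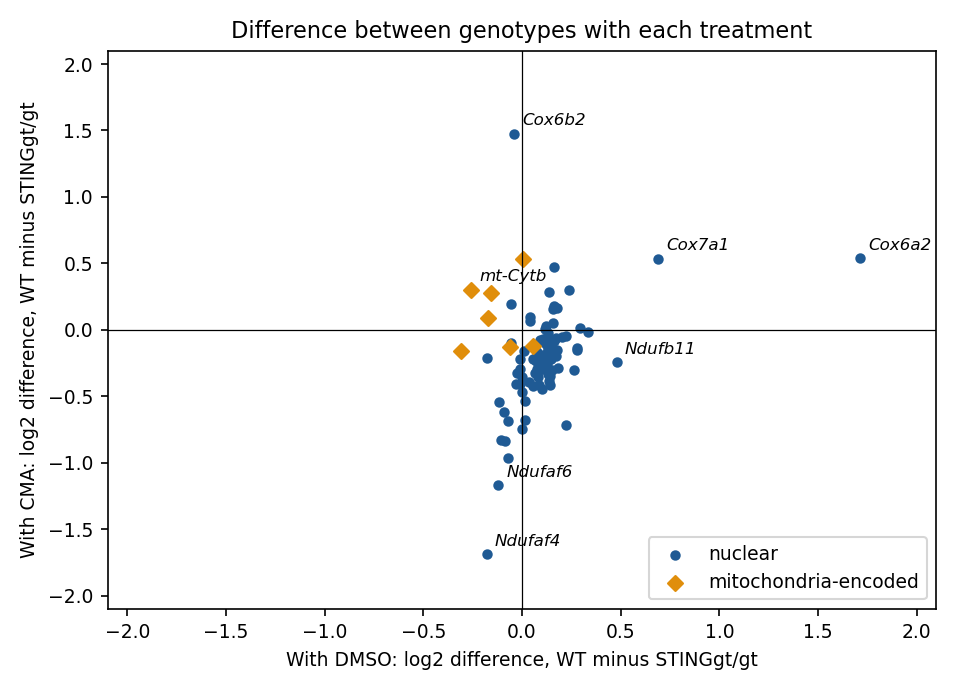
Log2 difference of each member, WT minus STINGgt/gt T cells, with DMSO (x axis) and with CMA (y axis). With DMSO the nuclear-encoded members lie mostly above 0 (median 0.11), and with CMA mostly below 0 (median -0.22).

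Promoters were read for the 71 of 87 nuclear-encoded members that matched the RefSeq table of GRCm38.p6 (250 bases before to 50 after the start). These starts lay 0 to 3643 bases from the gene start in GENCODE M21, within 100 bases for 59 of them. Letters known from binding sites of factors that regulate respiratory genes were searched on both strands. The NRF1 letters GCGCANGCG were in 21 of them (29.6%), beside 6.25% of all 32851 promoters of the same length. Each member entered with the promoter nearest its gene start. The 32851 were all RefSeq promoters listed, whether or not their genes were expressed here, so the sets are unlike. The ETS letters CCGGAAG were in 16 (22.5%, beside 8.86%), the YY1 letters AAGATGGCG in 6 (8.45%, beside 1.40%) and the E-box CACGTG in 5 (7.04%, beside 7.15%). The median log2 fold change with CMA in WT T cells was -0.36 for the 21 members with the NRF1 letters and -0.35 for the 50 without. For the ETS letters it was -0.25 with and -0.38 without. A match is a description of the letters and not a measured site.

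The stretches before the start are printed for Ndufaf4, the member with the largest fall, which carries the NRF1 letters, and for Cox6b2, the member with the largest rise, which carries none of the 4 motifs. Each is 150 bases, 5′ to 3′ on the strand of the gene, with matches in capitals. Their positions are chr4:24897933-24898082 (plus strand) for Ndufaf4 and chr7:4753095-4753244 (minus strand) for Cox6b2.
Ndufaf4: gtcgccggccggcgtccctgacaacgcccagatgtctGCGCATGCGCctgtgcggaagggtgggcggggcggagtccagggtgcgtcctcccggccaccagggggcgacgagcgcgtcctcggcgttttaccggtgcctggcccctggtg
Cox6b2: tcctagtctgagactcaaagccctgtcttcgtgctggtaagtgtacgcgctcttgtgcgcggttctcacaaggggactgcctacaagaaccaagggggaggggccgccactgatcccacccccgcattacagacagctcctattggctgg
In Ndufaf4 the capitals are a pair of overlapping matches on opposite strands.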

How the data were processed

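The deposited files hold raw counts of reads per Ensembl gene (HTSeq) for 38924 gene IDs in each of 12 libraries, and the authors also deposited log2 expression values of 11921 genes, used here to choose the members and as an alternative. The submitters' processing notes list cutadapt 1.3, STAR 2.4.0f1, HTSeq 0.6.1, RSEM 1.2.16 and the build GRCm38. The annotation release and the strand setting of the counting were not given in the sources used here. mRNA libraries were made with a stranded kit. Tally lines without a gene entered neither library sizes nor tests. Of all entries per library, non-unique alignments took 27.8% to 30.3%, reads outside genes 4.86% to 7.16% and ambiguous reads 0.594% to 0.635%. All per-sample columns were matched to a library by name.

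Counts were tested with edgeR 4.0.16 (R 4.3.3; quasi-likelihood test, TMM scaling, filterByExpr by group, 13811 genes kept, 4 group means in a single model). The p-values were adjusted by Benjamini and Hochberg's method over the whole table, and the threshold was 0.05. The model was tested on simulated data. Standard errors (SE) are on the log2 scale. Levels per kilobase used the median length of a gene's coding transcripts in GENCODE M21, where all 94 members overlapped the same gene. No 2 replicates agreed within sampling noise (chi-square divided by its degrees of freedom, 2.52 to 27.7). Alternatives were library-size scaling, TMM over nuclear genes only, DESeq2 1.42.0, limma-voom (limma 3.58.1), limma on the log2 values, a minimum of 10 counts per library or none at all, separate fits of the groups compared, a stricter adjusted p (0.01) or fold (1.5), blocks by replicate, a length trend removed (span 0.3) and each library left out in turn. Precision is limited by 3 libraries per group.

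The members and the gene lists were chosen with earlier results of these data known. Members named with values were 45: all mitochondria-encoded ones, per complex and for the Ndufaf genes the highest and lowest changes in WT T cells with CMA (mean count of at least 50), all isoform groups, the members that differed most between genotypes with DMSO and the most abundant member of each complex. From each other list at most 3 genes with the smallest p were named. Ndufs1, Ndufs3, Ndufv1, Uqcrfs1, Atp5l, Atp5s, Atp5sl and Tfam lie outside that rule and were chosen after their values were seen, as was the printing of a pair of promoters.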

Additional observations from a re-analysis of the deposited data

Results flagged for a closer look

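The test of the difference between the CMA effects of WT and STINGgt/gt T cells passed for 69 nuclear-encoded members with a lower effect in WT, for 2 with a higher effect in WT and for 1 of 7 mitochondria-encoded members with a higher effect in WT, beside 31.6% lower and 27.2% higher of all genes tested. Among the members named, the log2 differences (WT minus STINGgt/gt, adjusted p under 0.05 by edgeR) are given here for each complex. For complex I they were -0.75 for Ndufa12, -0.48 for Ndufa4, -0.72 for Ndufb11, -0.94 for Ndufb4 and -0.25 for Ndufv3. For the assembly factors of complex I they were -0.30 for Ndufaf1, 0.31 for Ndufaf3, -1.51 for Ndufaf4 and -1.05 for Ndufaf6. All 4 genes of complex II passed, with -0.29 for Sdha, -0.27 for Sdhb, -0.40 for Sdhc and -0.15 for Sdhd.

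For complex III the log2 differences were -0.55 for Uqcrb, -0.32 for Uqcrc2 and -0.57 for Uqcrq. For complex IV they were -0.56 for Cox5a, -0.17 for Cox5b, -0.35 for Cox6a1, -1.18 for Cox6a2, -0.26 for Cox6b1, 1.51 for Cox6b2, -0.37 for Cox7a2, -0.19 for Cox7a2l, -0.44 for Cox7b and -0.29 for Cox8a. For the ATP synthase they were -0.24 for Atp5a1, -0.26 for Atp5b, -0.47 for Atp5f1, -0.89 for Atp5g1, -0.30 for Atp5g2, -0.47 for Atp5g3 and -0.37 for Atp5k. The mitochondria-encoded gene was mt-Cytb, at 0.56. Of 24 alternatives, stricter thresholds and left-out libraries among them, the call was lost in 16 for Cox5b, 15 for Sdhd, 12 for Ndufv3, 10 for mt-Cytb, 6 for Cox7a2l and 5 for Ndufaf3.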

How the results depend on the processing

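Between 70 and 73 nuclear-encoded members were lower with CMA in WT T cells whichever library was left out, and the median lay between -0.38 and -0.32. Without 1 library, the higher nuclear-encoded members numbered 1 to 4 with CMA in WT, 1 to 3 in the difference of the CMA effects and 17 to 36 between genotypes with DMSO, where 0 to 1 were lower, and 0 to 1 were lower with CMA in STINGgt/gt T cells. The median of the genotype difference with DMSO lay between 0.067 and 0.12. For the mitochondria-encoded members the same step gave 1 to 6 higher and 0 to 1 lower with CMA in WT (median 0.057 to 0.51), 0 to 4 higher in the difference (median 0.16 to 0.48), 0 to 6 lower between genotypes with DMSO (median -0.40 to 0.0099) and 1 to 3 higher and 0 to 1 lower between genotypes with CMA. The log2 change of their share of reads in WT lay between 0.055 and 0.42. The 6 higher with CMA in WT, the 4 higher in the difference and the 6 lower with DMSO came without WT DMSO replicate 2, where mt-Co1 turned from 0.01 to -0.33 between genotypes with DMSO (range over all libraries left out, -0.33 to 0.17).

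Requiring a 1.5-fold change left 1 higher and 11 lower nuclear-encoded members with CMA in WT, 1 higher and 11 lower in the difference, 2 higher between genotypes with DMSO and 1 higher and 10 lower with CMA, and 0 mitochondria-encoded members higher with CMA in WT, in the difference or between genotypes with CMA. Of all genes, 16.5% were then higher and 16.2% lower with CMA in WT, 14.8% and 14.8% in the difference, 9.46% and 4.03% between genotypes with DMSO and 20.3% and 16.8% with CMA. At an adjusted p under 0.01, 1 nuclear-encoded member was higher with CMA in WT, 1 in the difference, 15 between genotypes with DMSO and 5 with CMA, and 1 mitochondria-encoded member was higher with CMA in WT and 0 in the difference, beside 28.7%, 21.7%, 17.2% and 33.1% of all genes higher in these 4 comparisons. With library-size scaling, 1 nuclear-encoded member was lower between genotypes with DMSO and 5 were higher with CMA, where the median was -0.27. Of all genes, 23.1% were then lower with DMSO and 34.1% higher with CMA. DESeq2 called 1 mitochondria-encoded member higher with CMA in WT and 0 in the difference, and 1 nuclear-encoded member lower between genotypes with DMSO. It called 33.6% of all genes higher with CMA in WT, 27.4% higher in the difference and 20.5% lower with DMSO. limma-voom called 2 mitochondria-encoded members higher in the difference, beside 27.9% of all genes. limma on the log2 table called 2 as well, beside 33.2% of all genes. Its nuclear-encoded medians were -0.31 with CMA in WT, -0.28 in the difference and -0.17 between genotypes with CMA.

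Without a filter, 5 mitochondria-encoded members were higher and 1 lower with CMA in WT, 4 higher in the difference, 4 lower between genotypes with DMSO and 3 higher and 2 lower with CMA, and 1 nuclear-encoded member was lower between genotypes with DMSO. Of all genes, 22.7% were then higher and 23.1% lower with CMA in WT, 17.6% higher in the difference, 13.8% lower with DMSO and 24.9% higher and 23.5% lower with CMA. With at least 10 counts in every library, the nuclear-encoded median with CMA in WT was -0.31, 2 mitochondria-encoded members were higher in the difference and 1 nuclear-encoded member was lower between genotypes with DMSO. Of all genes, 30.7% were then higher in the difference and 24.5% lower with DMSO. With only the groups compared, 1 mitochondria-encoded member was higher with CMA in WT, 3 were higher and 2 lower between genotypes with CMA, and 1 nuclear-encoded member was lower with CMA in STINGgt/gt T cells. Of all genes, 33.8% were then higher with CMA in WT and 2.96% lower with CMA in STINGgt/gt T cells. Between genotypes with CMA, 38.9% of all genes were higher and 39.4% lower. With a length trend removed, 5 nuclear-encoded and 4 mitochondria-encoded members were higher with CMA in WT (nuclear-encoded median -0.28), 3 mitochondria-encoded members were higher in the difference (nuclear-encoded median -0.29), 16 nuclear-encoded members were higher and 3 lower between genotypes with DMSO (median 0.059), and 2 mitochondria-encoded members were higher with CMA. Of all genes, 34.8% were then higher with CMA in WT and 28.8% in the difference. Between genotypes, 23.4% of all genes were higher and 21.2% lower with DMSO, and 38.4% were higher with CMA. The causes were not tested.

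The correlations of deviations between libraries with the same number ran from 0.00 to 0.13. They cannot tell whether the replicate numbers pair the libraries, so the main fit had no block and blocks were run as alternatives. With the number as a replicate block, 73 nuclear-encoded members were lower with CMA in WT and 3 mitochondria-encoded members were higher in the difference. Of all genes, 38.2% and 28.6% were so. With a block by library name, these member counts were 73 and 4, beside 37.5% and 25.5% of all genes. There 1 nuclear-encoded member was higher in the difference, where Ndufaf3 (0.30, adjusted p = 0.072) and Sdhd (-0.15, 0.10) no longer passed. With both blocks Cox4i1 passed as lower with CMA in WT (-0.11, adjusted p = 0.030 and 0.047), and mt-Co1 passed as higher with CMA in WT (0.42, 0.0081 and 0.0091) and in the difference (0.58, 0.010 and 0.71, 0.0075). Of 356 class counts, medians and shares recomputed with these alternatives, leaving out libraries aside, 303 stayed within 1.5 times the reported count or, for medians and shares, within 1 SD between replicates of the reported value, and 53 did not.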

Other observations

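Cox4i2, the hypoxia-linked isoform of Cox4i1, matched the symbols of the rule but lay outside the table, with 5 to 25 counts per library. It had 0.619, 0.839 and 0.512 CPM in WT T cells with DMSO and 0.167, 0.216 and 0.158 with CMA, and the groups did not overlap (log2 fold change -1.82, SE 0.339, adjusted p = 0.000152, edgeR). In STINGgt/gt T cells it had 0.361, 0.356 and 0.405 CPM with DMSO and 0.160, 0.317 and 0.390 with CMA, which overlapped. Of the other isoforms outside the table, Cox7b2 and Cox8b had 0 counts in every library, Cox8c had at most 1 and Ndufa4l2 at most 2.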
